A study of Mus musculus with 2 samples.

Results

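The metallothionein and iron handling genes described here are the 10 mouse genes Mt1, Mt2, Mt3, Fth1, Ftl1, Trf, Tfrc, Slc40a1, Slc11a2 and Cp. They were chosen by symbol from the 31053 genes of the deposited table, and all 10 were found there. The cells came from the hippocampus of 7-month Mr1-/- mice, in which the gene of the MHC class I-like molecule MR1 is disrupted, and of 7-month Mr1+/+ mice. Neither group was treated. Each genotype is 1 library of sorted live (DAPI-negative, Draq5-positive) single cells, and how many mice stand behind each is not stated in the labels. The libraries were made with a droplet kit that counts 5′ ends of transcripts, each molecule once by its unique molecular identifier (UMI). With 1 library per genotype no difference has a replicate check, so no p-values are given. Ranges in parentheses are exact 95% intervals that cover counting error only, and differences between mice, dissociations or library preparations cannot be told apart from genotype.

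The Mr1-/- library held 5347 barcodes and 18349132 UMIs, and the Mr1+/+ library 6410 barcodes and 23244575 UMIs, with medians of 2935 and 3160 UMIs per barcode. The libraries shared 44 barcode sequences. Mr1 itself had 2 UMIs in the library labelled Mr1-/- and 130 in the one labelled Mr1+/+. After filtering, 5107 Mr1-/- and 5992 Mr1+/+ cells were clustered without using the 10 genes, and 10 classes were named from marker genes. Although the series is titled as non-neuron cells, 167 Mr1-/- and 266 Mr1+/+ cells were neuron-like, with 5 of the 10 neuron markers detected. Of these, 160 and 249 lay in a cluster led by Reln, Snhg11 and Pcp4, and 7 and 17 in a cluster led by Cck and Nrgn. Neuron-like values below thus mostly describe the Reln-led cells and not hippocampal neurons at large. Genotypes were compared in the 7 classes that held 50 or more cells of both. These were endothelial-like (1496 Mr1-/- and 1341 Mr1+/+ cells), oligodendrocyte-like (957 and 1436), mural-like (pericytes and smooth muscle, 934 and 929), astrocyte-like (477 and 956), microglia-like (744 and 628), neuron-like and neuroblast-like (54 and 66) cells. Ependymal-like (59 and 45), oligodendrocyte precursor-like (33 and 42) and fibroblast-like (32 and 29) cells had fewer than 50 cells in at least 1 library and are described by level only. A level is the UMIs of a gene as counts per 1e6 UMIs of the class (CPM). Levels are thus shares of a class total, and fewer UMIs of other genes would raise them.

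Metallothioneins are small cysteine-rich proteins that bind zinc and copper. Mt1 and Mt2 are induced in many tissues by metals, through the factor MTF1, which binds metal response elements, and by glucocorticoids, while Mt3 is the brain-enriched member. Iron enters cells mostly as transferrin (Trf) taken up by the transferrin receptor (Tfrc) and leaves the endosome through the divalent metal transporter DMT1 (Slc11a2). It is stored in ferritin, a shell of heavy (Fth1, the iron-oxidising subunit) and light (Ftl1) chains, and leaves through ferroportin (Slc40a1) with the help of the ferroxidase ceruloplasmin (Cp). In brain, oligodendrocytes are known as iron-rich cells, and the endothelium of the blood-brain barrier takes iron up from plasma. Iron regulatory proteins bind iron-responsive elements, short stem-loops in these mRNAs, and so set ferritin translation and Tfrc mRNA stability. UMI counts see the mRNA and not the protein, so translational control of ferritin is outside what was measured.

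The 3 metallothionein genes lie close together on chromosome 8 (build GRCm38, positions from GENCODE M21), all on the plus strand. Mt3 spans 94152607 to 94154146, Mt2 spans 94172664 to 94173568 and Mt1 spans 94179082 to 94180327. Their promoters are shown because the 3 genes differ in cell distribution below. Each window runs from 250 bases before to 50 bases after the start annotated by RefSeq (GRCm38.p6), and the RefSeq table held 7 of the 10 genes. Capitals mark matches, on either strand, to the core of the metal response element, searched as TGCACNC or TGCGCNC.
Mt1, chr8:94178839-94179138, plus strand: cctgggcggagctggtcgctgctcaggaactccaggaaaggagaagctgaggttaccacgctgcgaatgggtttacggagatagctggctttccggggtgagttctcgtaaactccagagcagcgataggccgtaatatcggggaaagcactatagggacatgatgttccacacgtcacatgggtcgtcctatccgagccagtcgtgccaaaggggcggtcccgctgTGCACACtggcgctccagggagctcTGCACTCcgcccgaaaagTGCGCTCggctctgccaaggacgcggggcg
Mt2, chr8:94172368-94172667, plus strand: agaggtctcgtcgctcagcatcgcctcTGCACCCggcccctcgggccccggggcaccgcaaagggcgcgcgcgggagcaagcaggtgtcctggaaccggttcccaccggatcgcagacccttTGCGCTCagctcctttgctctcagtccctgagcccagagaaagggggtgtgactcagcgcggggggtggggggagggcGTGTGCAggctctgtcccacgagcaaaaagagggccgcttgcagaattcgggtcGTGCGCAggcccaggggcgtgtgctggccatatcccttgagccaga
Mt3, chr8:94152357-94152656, plus strand: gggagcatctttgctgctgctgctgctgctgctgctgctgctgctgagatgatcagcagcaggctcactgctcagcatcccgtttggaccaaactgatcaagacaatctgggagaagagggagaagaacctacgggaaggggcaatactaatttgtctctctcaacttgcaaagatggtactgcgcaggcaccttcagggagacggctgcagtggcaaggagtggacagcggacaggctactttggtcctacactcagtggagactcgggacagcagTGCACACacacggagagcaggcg
The Mt2 window held 4 matches, and 0.517% of the 32851 RefSeq promoter windows of this length hold at least as many. The Mt1 window held 3, as many as or more than which are found in 1.97% of windows. The Mt3 window held 1, and 25.7% of windows hold at least 1. An antioxidant response element core, searched on both strands as TGACNNNGC, matched once in the Mt2 window, at -79 from the start, and not in the windows of Mt1 or Mt3. At least 1 such match is found in 12.4% of windows. A match is a string of letters, and no binding was measured. The windows depend on the annotated start, and bases outside them were not searched. GENCODE, for example, starts Mt2 at 94172664, close to the end of its window at 94172667. The absence of a match in a window is thus not its absence from the gene, and the counts do not rank the promoters.

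The iron-responsive stem-loops of the ferritins and the transferrin receptor are shown because these mRNAs are known to share that control. Loops were listed for these genes only, and whether other members hold one is not given. The search took an unpaired C, 5 bases, the loop CAGTGN and 5 bases that pair with the first 5, with G-U pairs allowed, in the untranslated regions (UTRs) of GENCODE M21 transcripts. Capitals mark the 6-base loop.
Fth1 5′UTR, chromosome 19: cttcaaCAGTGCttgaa
Ftl1 5′UTR, chromosome 7: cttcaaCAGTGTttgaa
Tfrc 3′UTR, chromosome 16, first loop: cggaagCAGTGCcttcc
Tfrc 3′UTR, next loop: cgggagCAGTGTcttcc
Tfrc 3′UTR, next loop: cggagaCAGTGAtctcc
Tfrc 3′UTR, last loop: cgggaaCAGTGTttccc
The ferritin stem-loops share their paired bases and differ only within the loop. The Fth1 loop starts 93 bases into the 224-base 5′UTR of Fth1-201, and the Ftl1 loop 84 bases into the 253-base 5′UTR of Ftl1-201. The Tfrc loops start 892, 1271, 1336 and 1383 bases into the 2461-base 3′UTR. Such a stem-loop was found in the 5′UTR of 31 of 20916 genes (0.148%) and in the 3′UTR of 129 of 21707 genes (0.594%). Fth1 lies at 9980598 to 9985098 on chromosome 19 (plus strand), Ftl1 at 45457944 to 45459884 on chromosome 7 (minus), and Tfrc at 32608920 to 32632794 on chromosome 16 (plus).

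The remaining genes were Trf at 103204001 to 103230444 on chromosome 9 (minus), Slc40a1 at 45908068 to 45926523 on chromosome 1 (minus), Slc11a2 at 100387898 to 100425072 on chromosome 15 (minus) and Cp at 19957054 to 20009145 on chromosome 3 (plus). Trf overlaps Gm20425 on its own strand, and Gm20425 had 0 UMIs in both libraries. Mt2, Slc11a2 and Cp overlap genes on the opposite strand, and whether counting used strand is not stated in the labels. Those partners had 9 UMIs in the Mr1-/- and 9 in the Mr1+/+ library (Gm45774, at Mt2), 4 and 4 (Gm5475, at Slc11a2) and 461 and 462 (Hps3, at Cp), so the Cp count is the least certain of them. The ferritin light chain pseudogene Ftl1-ps1 had 50 UMIs in Mr1-/- cells and 88 in Mr1+/+ cells, against 46679 and 51805 for Ftl1.

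Metallothionein transcripts were most concentrated in astrocyte-like and ependymal-like cells. Mt1 had 13410 CPM (13223 to 13599) in Mr1-/- and 14377 CPM (14242 to 14512) in Mr1+/+ astrocyte-like cells, and 14761 and 12483 CPM in ependymal-like cells. Next came endothelial-like cells with 1372 CPM in Mr1-/- and 1175 CPM in Mr1+/+ cells, and oligodendrocyte-like cells with 966 and 1165 CPM. Fibroblast-like cells had 389 and 1202 CPM, of which the 5 highest cells held 63.0% and 71.4%. In the Mr1+/+ library the fibroblast-like, endothelial-like and oligodendrocyte-like levels did not differ beyond counting error. Microglia-like cells had 148 and 179 CPM of Mt1, and mural-like cells 97.7 and 140 CPM. An Mt1 UMI was present in all 477 Mr1-/- and in 99.6% of 956 Mr1+/+ astrocyte-like cells, against 17.1% and 24.4% of mural-like cells (medians of 2243 and 2483 UMIs).

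Mt2 was also concentrated in these classes. It had 1235 CPM in Mr1-/- and 1438 CPM in Mr1+/+ astrocyte-like cells, and 1370 and 969 CPM in ependymal-like cells. Endothelial-like cells had 184 and 168 CPM, oligodendrocyte-like cells 19.8 and 26.4 CPM, and microglia-like cells 3.54 and 2.93 CPM. The number of Mt2 UMIs per Mt1 UMI therefore differed between some classes. It was 0.134 in Mr1-/- and 0.143 in Mr1+/+ endothelial-like cells, 0.0921 and 0.100 in astrocyte-like cells, and 0.0205 and 0.0226 in oligodendrocyte-like cells. Endothelial-like and oligodendrocyte-like cells, close in Mt1, thus stood several-fold apart in this ratio in both libraries. It did not set all classes apart. Microglia-like cells (0.0240 and 0.0163) lay near oligodendrocyte-like cells, and ependymal-like cells (0.0928 and 0.0776) near astrocyte-like cells. The libraries disagreed in neuroblast-like (0.756 in Mr1-/- and 0.133 in Mr1+/+) and fibroblast-like cells (0.304 and 0.0752). The ratio counts molecules tagged at their 5′ ends and is not divided by gene length, so it is compared between classes only.

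Mt3, the brain-enriched member, had 13710 CPM (13521 to 13901) in Mr1-/- and 12985 CPM (12858 to 13114) in Mr1+/+ astrocyte-like cells, and 17791 and 17041 CPM in ependymal-like cells. Oligodendrocyte precursor-like cells followed with 946 and 1130 CPM, then neuron-like cells with 631 and 798 CPM. Neuroblast-like cells had 133 and 255 CPM, fibroblast-like cells 50.7 and 271 CPM and oligodendrocyte-like cells 130 and 150 CPM. Mt3 per Mt1 was 1.02 in Mr1-/- and 0.903 in Mr1+/+ astrocyte-like cells, 1.21 and 1.37 in ependymal-like cells, and 4.88 and 6.47 in neuron-like cells. In endothelial-like cells it was 0.0111 and 0.0142. Endothelial-like cells, which had more Mt1 than microglia-like and mural-like cells, were thus among the lowest in Mt3.

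RNA set free by broken cells adds UMIs of abundant genes to other droplets, so each level was set beside UMIs of astrocyte transcripts (Slc1a2 and Aldoc) in the same class. Astrocyte-like cells held 117 Mt1 UMIs per 100 of these in Mr1-/- cells and 126 in Mr1+/+ cells. The figure was 10104 and 8666 in endothelial-like cells, 3074 and 2496 in microglia-like cells, 1729 and 1589 in oligodendrocyte-like cells and 1009 and 504 in mural-like cells, all above the astrocyte ratio. Neuron-like cells (138 and 164), neuroblast-like cells (68.3 and 88.2) and oligodendrocyte precursor-like cells (73.4 and 93.8) were near it. Slc1a2 and Aldoc did not stand there as in astrocyte-like cells (9036 and 7790 UMIs in the Mr1-/- library), with 56 and 5 UMIs in Mr1-/- neuron-like and 52 and 8 in Mr1-/- neuroblast-like cells, so how much of their Mt1 was free astrocyte RNA cannot be read from this ratio. For Mt3 the astrocyte ratio was 119 in the Mr1-/- and 113 in the Mr1+/+ library. Endothelial-like cells (112 and 123) and mural-like cells (95.7 and 116) were at that ratio, so no Mt3 beyond background is read there, while neuron-like cells (672 and 1060) and oligodendrocyte-like cells (233 and 205) were above it.

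**Figure D1:**
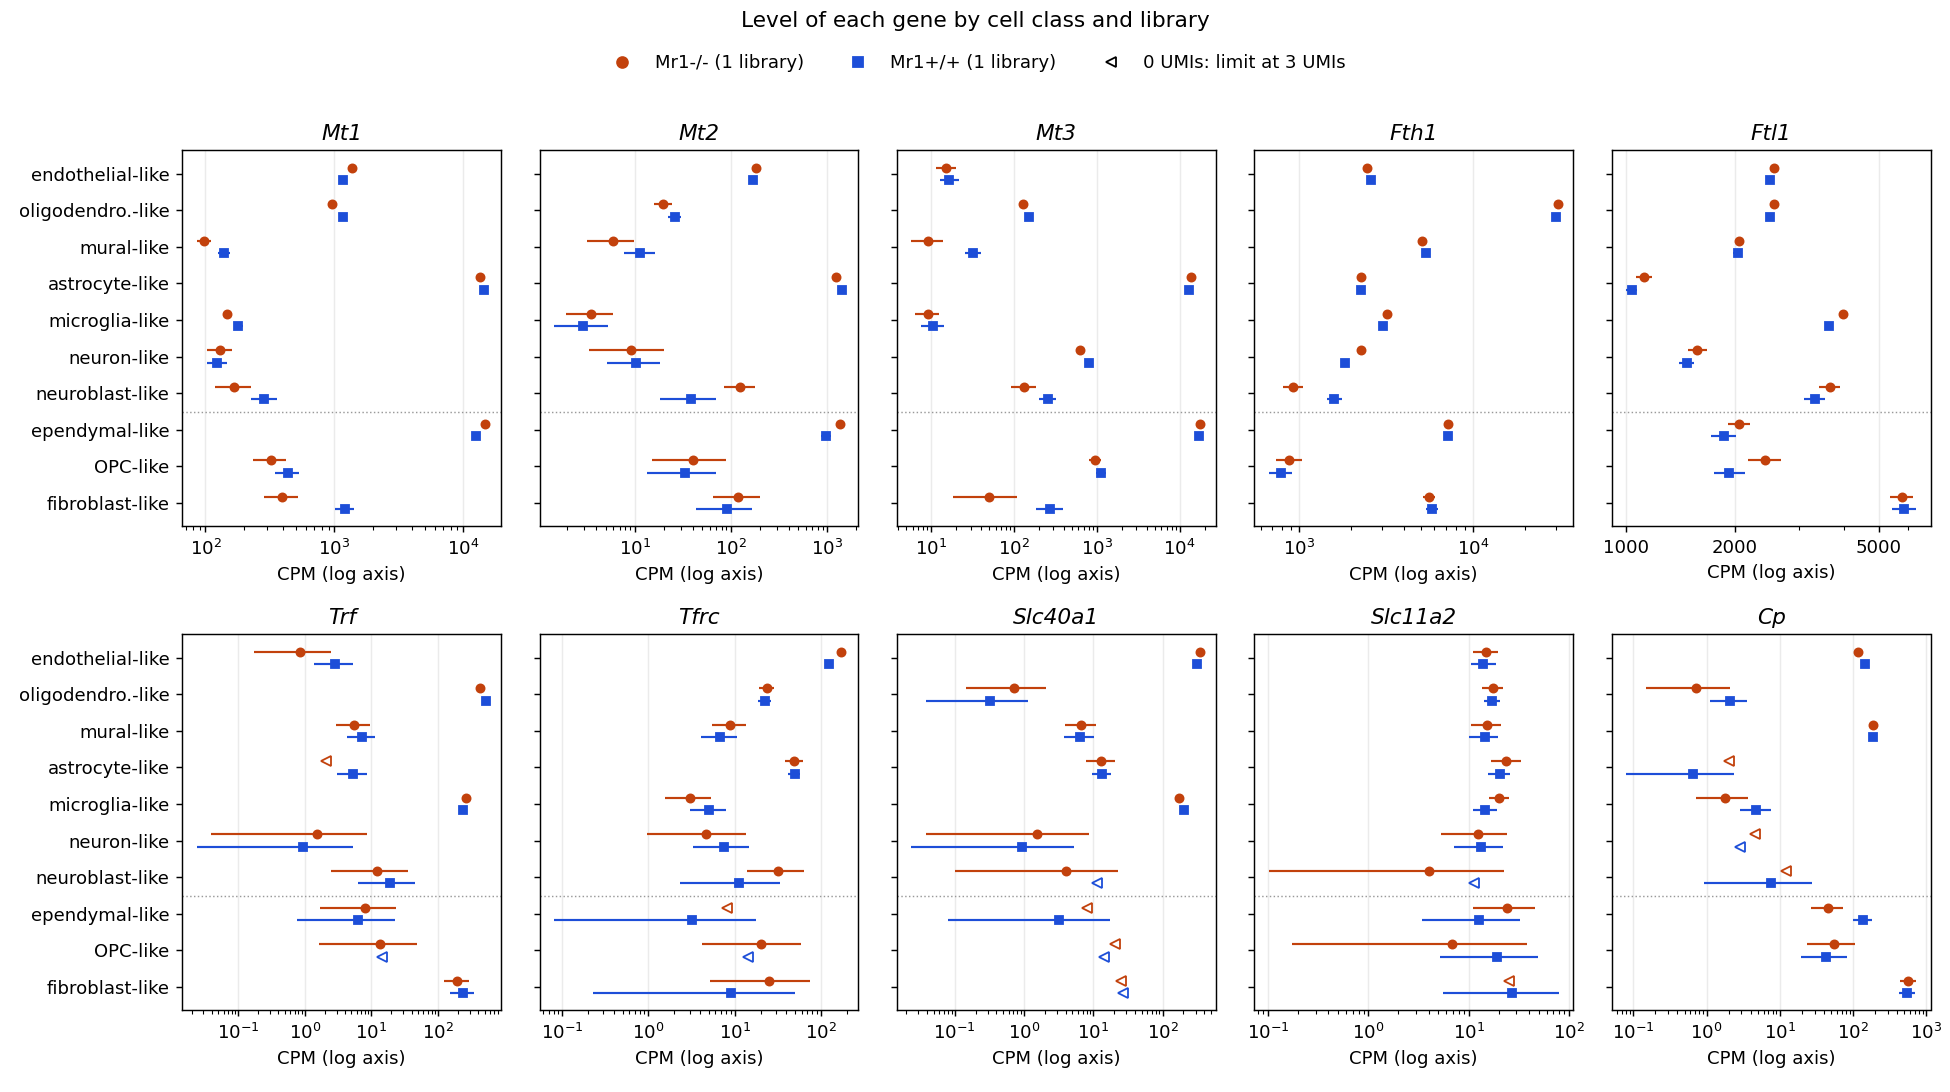
Level of each of the 10 genes in CPM (log axes, which differ between panels) by cell class, with the Mr1-/- library in circles above the Mr1+/+ library in squares. Bars are exact 95% Poisson intervals, open triangles mark 0 UMIs at the level of 3 UMIs, OPC stands for oligodendrocyte precursor, and classes below the dotted line were too small to compare. Fth1 peaks in oligodendrocyte-like cells at 31063 and 30110 CPM, and Mt1 and Mt3 in astrocyte-like and ependymal-like cells.

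Mt1 and Mt3 varied together from cell to cell in astrocyte-like cells, and Mt1 and Mt2 in astrocyte-like and endothelial-like cells. Over thinned astrocyte-like cells, the correlation of Mt1 with Mt3 (Pearson r of log counts) was 0.47 over 453 Mr1-/- cells and 0.43 over 850 Mr1+/+ cells. For Mt1 and Mt2 it was 0.38 and 0.35 in astrocyte-like cells, and 0.33 and 0.37 in endothelial-like cells (1329 and 1159 cells). In oligodendrocyte-like cells r was 0.10 and 0.13 for Mt1 with Mt2, and 0.02 and 0.07 for Mt1 with Mt3, and in microglia-like cells 0.01 and 0.03 for Mt1 with Mt2. Cells of a class share one library and one preparation, so these values describe the libraries only. Among astrocyte-like clusters, the Gfap-led cluster had 15577 CPM of Mt1 in the Mr1-/- and 15778 CPM in the Mr1+/+ library. The Igfbp2-led cluster had less, with 11277 and 12499 CPM.

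Ferritin heavy chain differed strongly between classes. Oligodendrocyte-like cells had 31063 CPM of Fth1 in Mr1-/- cells and 30110 CPM in Mr1+/+ cells, 4.30 times (4.14 to 4.47) and 4.17 times (4.0 to 4.34) the level of the next class, ependymal-like cells at 7217 and 7226 CPM. In thinned oligodendrocyte-like cells the median was 45.0 of 1500 UMIs in Mr1-/- and 44.0 in Mr1+/+ cells. The lowest class was oligodendrocyte precursor-like cells, with 878 CPM and 784 CPM. In the Mr1-/- library these did not differ from neuroblast-like cells (926 CPM) beyond counting error (1.06, 0.847 to 1.32). The precursor was thus at the low end of the Fth1 order and the mature cell at its top in both libraries. Fibroblast-like cells had 5605 and 5819 CPM, mural-like cells 5101 and 5409 CPM, microglia-like cells 3189 and 3018 CPM, endothelial-like cells 2453 and 2598 CPM and astrocyte-like cells 2254 and 2272 CPM.

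Ftl1 varied far less. Its highest level was 5775 CPM in Mr1-/- and 5855 CPM in Mr1+/+ fibroblast-like cells, followed by microglia-like cells at 3966 and 3639 CPM. Its lowest was 1124 and 1040 CPM in astrocyte-like cells. Oligodendrocyte-like cells (2572 and 2500 CPM) did not differ from endothelial-like cells (2563 and 2499 CPM) beyond counting error. The Ftl1 UMIs per Fth1 UMI were 0.0828 in Mr1-/- and 0.0830 in Mr1+/+ oligodendrocyte-like cells, 0.403 and 0.377 in mural-like cells and 1.24 and 1.21 in microglia-like cells. They were 2.76 and 2.47 in precursor-like cells and 3.94 (3.41 to 4.58) in Mr1-/- and 2.08 (1.85 to 2.35) in Mr1+/+ neuroblast-like cells.

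**Figure D2:**
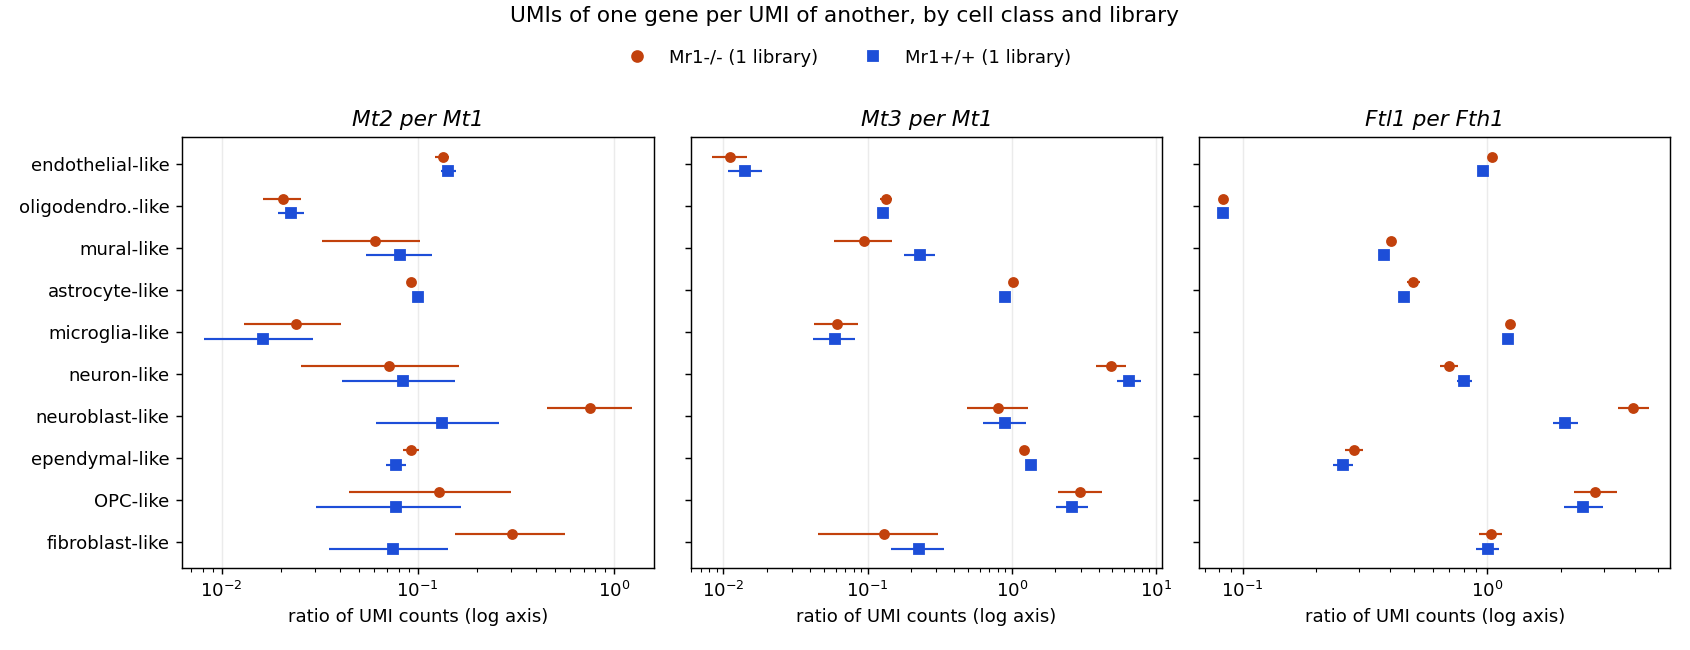
UMIs of one gene per UMI of another by cell class, on log axes, with Mr1-/- in circles above Mr1+/+ in squares and exact 95% intervals. Mt2 per Mt1 is low in oligodendrocyte-like cells (0.0205 and 0.0226) and Ftl1 per Fth1 is lowest there (0.0828 and 0.0830).

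Mural-like clusters differed in both ferritin chains, in opposite directions. Cnn1-led smooth muscle-like cells had 9311 CPM of Fth1 in the Mr1-/- and 9181 CPM in the Mr1+/+ library, and 1068 and 1165 CPM of Ftl1. The main pericyte-like cluster had 1628 and 1630 CPM of Fth1, and 3208 and 3436 CPM of Ftl1. Over single mural-like cells Fth1 and Ftl1 were inversely correlated, with r of -0.43 over 754 thinned Mr1-/- cells and -0.42 over 783 Mr1+/+ cells. Over single oligodendrocyte-like cells r was -0.02 and -0.03. Endothelial-like clusters also differed, as venous-like cells had 4231 and 4311 CPM of Fth1 and Hmcn1-led capillary-like cells 1623 and 1716 CPM.

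Transferrin was found in oligodendrocyte-like, microglia-like and fibroblast-like cells. Oligodendrocyte-like cells had 425 CPM (405 to 445) in the Mr1-/- and 519 CPM (501 to 537) in the Mr1+/+ library. Microglia-like cells had 263 and 236 CPM, and fibroblast-like cells 194 and 235 CPM. A Trf UMI was present in 77.8% of Mr1-/- and 80.2% of Mr1+/+ oligodendrocyte-like cells (43.4% and 51.1% when thinned to 1500 UMIs). In microglia-like cells the shares were 65.3% and 66.9% (33.8% and 32.5% when thinned). They were 0 of 477 Mr1-/- astrocyte-like cells, which allows up to 2.05 CPM at a floor of 3 UMIs, and 1.67% of Mr1+/+ astrocyte-like cells. Median depths were 4181 and 4354 UMIs in oligodendrocyte-like cells, 3824 and 4362 in microglia-like cells and 2994 and 3120 in astrocyte-like cells. Microglia-like Trf was not in the proportion of oligodendrocyte RNA. Beside 1040 and 885 Trf UMIs, microglia-like cells held 109 UMIs of the myelin gene Mbp in the Mr1-/- and 150 in the Mr1+/+ library. Oligodendrocyte-like cells held 27162 and 43292 Mbp UMIs beside 1779 and 3250 of Trf.

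The transferrin receptor was highest in endothelial-like cells, at 172 CPM (158 to 186) in the Mr1-/- and 126 CPM (114 to 138) in the Mr1+/+ library. Astrocyte-like cells had 49.2 and 49.7 CPM, oligodendrocyte-like cells 23.6 and 22.4 CPM, neuroblast-like cells 32.2 and 11.4 CPM and fibroblast-like cells 25.4 and 9.04 CPM. In Mr1-/- cells the astrocyte-like level did not differ from the neuroblast-like one beyond counting error (1.53, 0.734 to 3.67). Microglia-like cells had 3.03 and 5.06 CPM. The Trf-rich oligodendrocyte-like and microglia-like cells thus both had less Tfrc than endothelial-like cells. Among endothelial-like clusters Tfrc was highest in capillary-like cells, with 331 CPM in Mr1-/- and 244 CPM in Mr1+/+ cells of the Hmcn1-led capillary-like cluster, of which Tfrc is itself a leading gene. Arterial-like cells had 49.3 and 37.5 CPM, venous-like cells 126 and 121 CPM, and the Plvap-led cluster 0 and 1 UMI. Slc11a2 differed little between classes. It had 23.9 CPM in Mr1-/- and 20.4 CPM in Mr1+/+ astrocyte-like cells, 20.2 and 14.6 CPM in microglia-like cells, 17.4 and 17.3 CPM in oligodendrocyte-like cells and 15 and 14.1 CPM in endothelial-like cells, and no neighbours among its 5 highest classes differed beyond counting error.

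Ferroportin was found in endothelial-like and microglia-like cells. Endothelial-like cells had 342 CPM (323 to 362) in the Mr1-/- and 318 CPM (300 to 337) in the Mr1+/+ library, and microglia-like cells 174 CPM (162 to 188) and 201 CPM (187 to 216). Astrocyte-like cells had 13 and 13.5 CPM, and oligodendrocyte-like cells 3 and 2 UMIs in all. In microglia-like cells there were 4312 Slc40a1 UMIs per 100 endothelial UMIs (Cldn5 and Slco1a4) in the Mr1-/- and 5040 in the Mr1+/+ library, against 5.61 and 5.97 in endothelial-like cells. Along the vessel, capillary-like cells of the Hmcn1-led cluster had 459 and 457 CPM, venous-like cells 382 and 358 CPM and arterial-like cells 193 and 137 CPM. The Plvap-led cluster had 0 and 4 UMIs. Few UMIs of the iron importer or the exporter were thus found in its 51 Mr1-/- and 30 Mr1+/+ cells.

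Ceruloplasmin was highest in fibroblast-like and mural-like cells. Fibroblast-like cells had 575 CPM in the Mr1-/- and 551 CPM in the Mr1+/+ library, mural-like cells 190 (172 to 208) and 190 CPM (173 to 207), and endothelial-like cells 118 and 146 CPM. Ependymal-like cells had 46.0 and 137 CPM, and in the Mr1+/+ library did not differ from endothelial-like cells beyond counting error (1.07, 0.780 to 1.49). Precursor-like cells had 54.4 and 43.3 CPM. Among mural-like cells, Cp lay in the pericyte-like clusters, with 370 and 376 CPM in one and 423 and 414 CPM in the other. Smooth muscle-like clusters had 32.3 and 43.9 CPM, and 51.9 and 102 CPM. Among endothelial-like clusters the arterial-like one was highest, with 308 and 248 CPM, while Slc40a1 and Tfrc were lowest there apart from the Plvap-led cluster. Cp per 100 Vtn and Rgs5 UMIs was 513 in Mr1-/- and 249 in Mr1+/+ endothelial-like cells, against 1.33 and 1.45 in mural-like cells. Astrocytes are known to carry a membrane-anchored ceruloplasmin. Cp had 0 UMIs in 477 Mr1-/- and 2 UMIs in 956 Mr1+/+ astrocyte-like cells. The bound from 0 UMIs is 2.05 CPM. A 5′ count cannot be split by isoform.

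Differences between genotypes within classes were mostly small. A gene was counted as past the fold threshold if the Mr1-/- over Mr1+/+ ratio of CPM, or its inverse, was below 0.8 and the class held at least 50 of its UMIs over both libraries. The same share over all genes is the background. In endothelial-like cells 1 of 9 measured members passed (Tfrc higher), against 19.5% of 8988 genes. In oligodendrocyte-like cells 1 of 8 passed (Mt2 lower), against 15.5% of 8999 genes. In mural-like cells 2 of 6 passed (Mt1 and Mt3 lower), against 20.8% of 8520 genes. In astrocyte-like cells 0 of 8 passed, against 22.6% of 8482 genes. In microglia-like cells 1 of 7 passed (Slc11a2 higher), against 16.1% of 8819 genes. In neuron-like cells 1 of 4 passed (Mt3 lower), against 29.6% of 5747 genes. In neuroblast-like cells 3 of 4 passed (Mt1, Mt3 and Fth1 lower), against 43.7% of 1899 genes. Median log2 ratios of the measured members lay between -0.09 and 0.08 in all classes but neuroblast-like cells (-0.79), and those of all genes between -0.04 and 0.02. The share of members past the threshold was above the background only in mural-like and neuroblast-like cells, with 6 and 4 members measured. Mural-like Mt3, counted there, stood at the astrocyte ratio described above and is not read as a change of mural-like cells. In neuroblast-like cells few cells held most of the Mt1 and Mt3 UMIs.

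**Figure D3:**
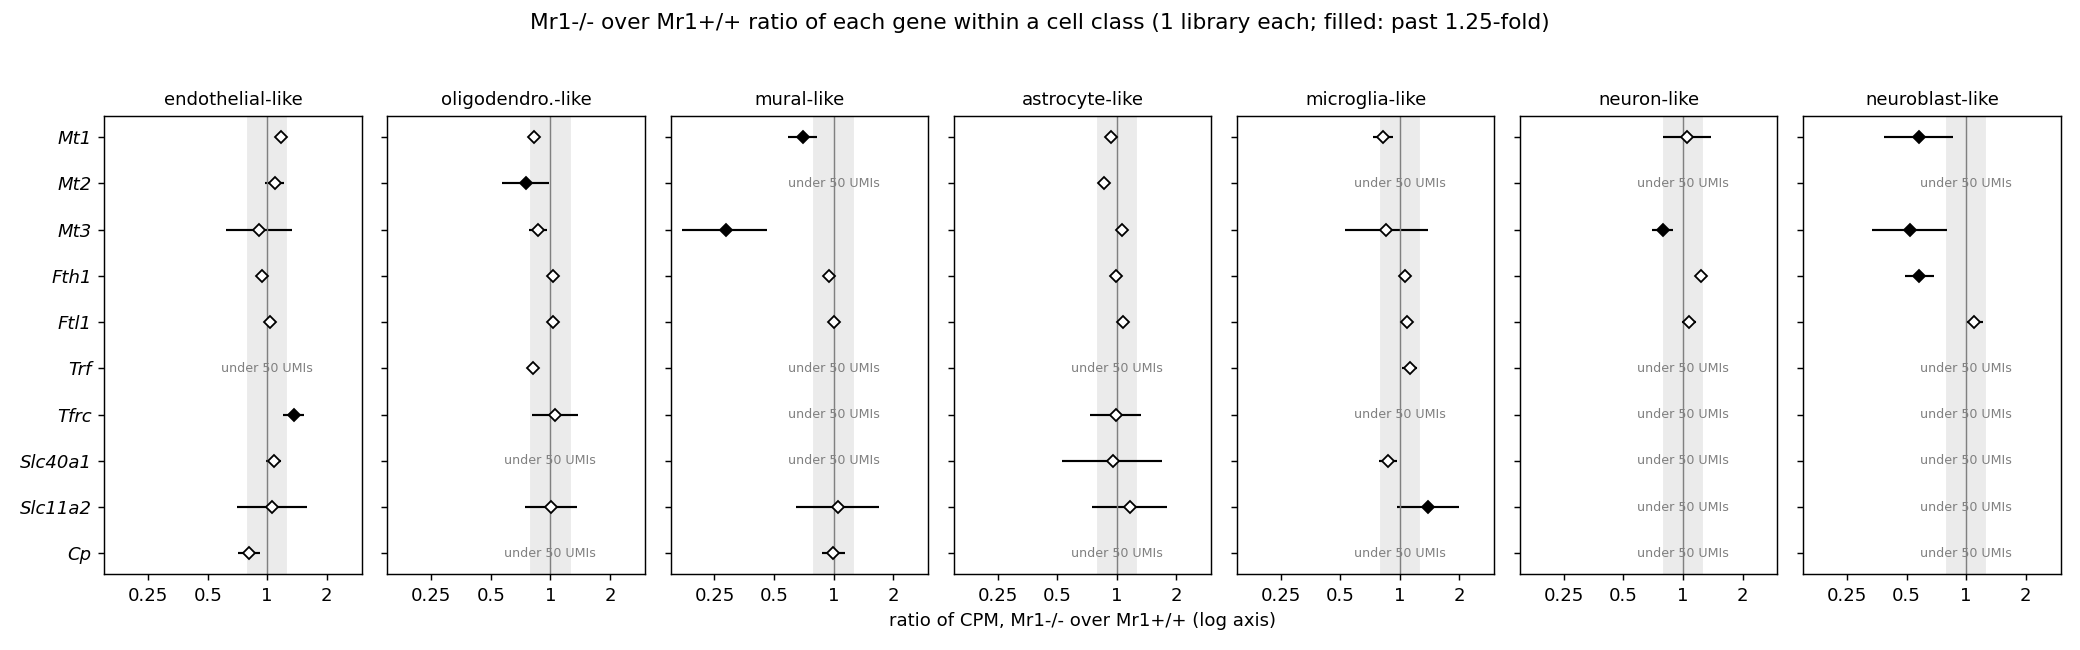
Ratio of CPM, Mr1-/- over Mr1+/+, for each measured gene in each of the 7 compared classes on a log axis, with exact 95% counting intervals. The grey band marks ratios within the fold threshold, genes under 50 UMIs are not plotted, and filled points are past the threshold, such as endothelial-like Tfrc at 1.36, and most points lie close to 1.

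Tfrc was higher in Mr1-/- endothelial-like cells, with 619 UMIs (172 CPM), than in Mr1+/+ endothelial-like cells, with 437 UMIs (126 CPM). The ratio was 1.36 (1.2 to 1.54), a log2 ratio of 0.44, which was 0.31 and just short of the threshold with cells thinned to 1500 UMIs. A Tfrc UMI was present in 27.1% of Mr1-/- and 22.8% of Mr1+/+ cells (18.8% and 15.8% when thinned), against 1.61% and 2.71% of microglia-like cells. It was higher in both capillary-like clusters and the unnamed Adm-led one, with ratios of 1.36 (1.14 to 1.62) in the Hmcn1-led, 1.55 (1.10 to 2.20) in the Adm-led and 1.68 (1.13 to 2.54) in the Ifit3-led cluster. The ratio was 1.31 (0.777 to 2.24) in arterial-like, 1.04 (0.683 to 1.58) in venous-like and 1.03 (0.661 to 1.61) in Hbb-bs-led cells, and whether these ratios differ from the others was not tested. At an equal mix of clusters, an alternative chosen after seeing the data, the log2 ratio was 0.43, against 0.44 as measured. Cldn5, a tight junction gene of the same cells, had a ratio of 1.19 (1.17 to 1.22) and Slco1a4 of 0.998.

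Mt1 was also higher in Mr1-/- endothelial-like cells, at 1372 CPM against 1175 CPM in Mr1+/+ cells, a ratio of 1.17 (1.12 to 1.22) that is short of the fold threshold. It was 1.29 in Hmcn1-led and 1.32 in Ifit3-led capillary-like cells and 0.972 (0.880 to 1.07) in venous-like cells. Mt2 in endothelial-like cells had a ratio of 1.09 (0.975 to 1.22). Cp was lower, at 118 CPM in Mr1-/- and 146 CPM in Mr1+/+ endothelial-like cells, a ratio of 0.811 (0.711 to 0.924). It was below 1 in 6 of 7 clusters, from 0.498 (0.326 to 0.749) in Hbb-bs-led to 0.799 in Plvap-led cells, and above 1 in arterial-like cells (308 and 248 CPM, interval of the ratio 1.02 to 1.52). Pericyte UMIs (Vtn and Rgs5) in the endothelial-like class were also fewer in the Mr1-/- library, 83 against 203 in the Mr1+/+ library, and their part in the Cp difference was not tested.

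**Figure D4:**
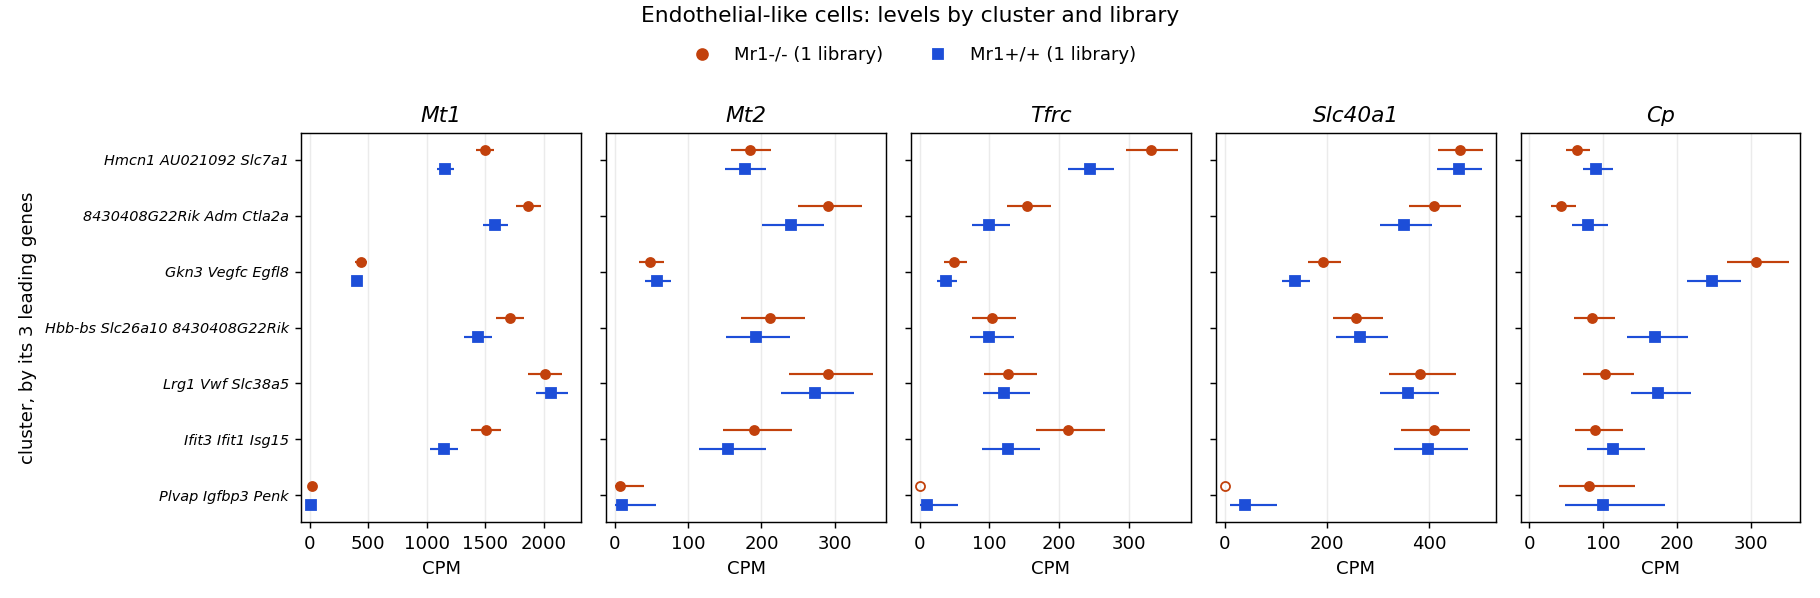
Levels in CPM (linear axes) in the 7 endothelial-like clusters, each named by its 3 leading genes, with Mr1-/- in circles above Mr1+/+ in squares, exact 95% Poisson intervals and an open marker at 0 UMIs. Tfrc is highest in the Hmcn1-led cluster (331 and 244 CPM) and Cp in the Gkn3-led arterial-like cluster (308 and 248 CPM).

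In oligodendrocyte-like cells Trf was lower in the Mr1-/- library, with 1779 UMIs (425 CPM), than in the Mr1+/+ library, with 3250 UMIs (519 CPM), a ratio of 0.818 (0.772 to 0.867). The ratio was between 0.810 and 0.816 in 4 of 5 clusters. It was 1.28 (0.924 to 1.76) in the AY036118-led cluster, which held 49 Mr1-/- and 204 Mr1+/+ cells of low depth (medians of 2117 and 1152 UMIs). Mt1 followed it with 966 CPM in Mr1-/- and 1165 CPM in Mr1+/+ cells, a ratio of 0.829 (0.798 to 0.862). By cluster the Mt1 ratio ran from 0.779 in Ptgds-led to 0.991 (0.862 to 1.14) in Klk6-led cells. Mt2 rested on 83 and 165 UMIs and had a ratio of 0.752 (0.571 to 0.985) and, with thinned cells, a log2 ratio of -0.18, against -0.41. Mt3 had a ratio of 0.868 (0.779 to 0.965). Astrocyte UMIs in this class (Slc1a2 and Aldoc) were 234 in the Mr1-/- and 459 in the Mr1+/+ library, which had the larger class total. As CPM, Slc1a2 stood at 23.2 in Mr1-/- and 35.6 in Mr1+/+ cells (ratio 0.650) and Aldoc at 32.7 and 37.7 (0.868). The part of astrocyte RNA in the metallothionein differences was not tested. Both ferritin chains had ratios of 1.03, and Mbp of 0.938.

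**Figure D5:**
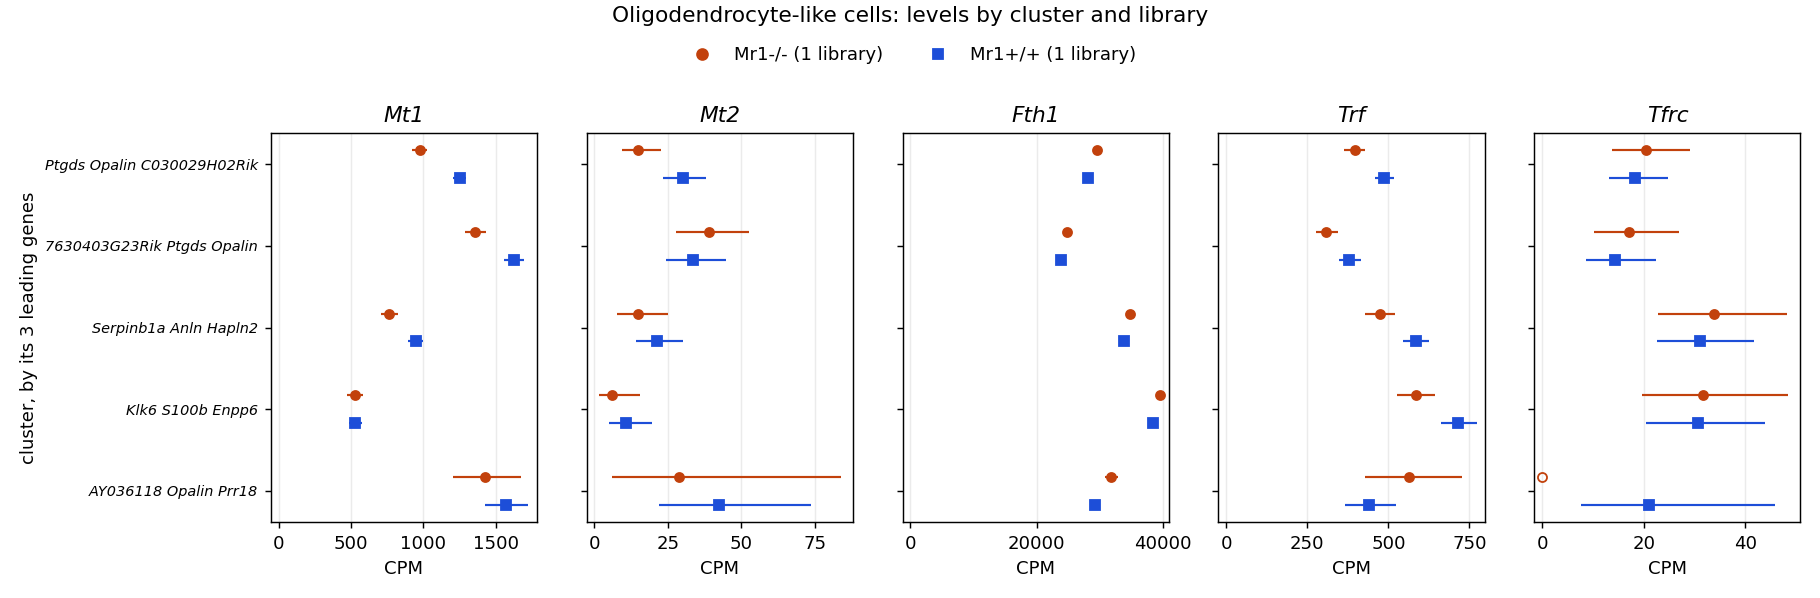
Levels in CPM (linear axes) in the 5 oligodendrocyte-like clusters, each named by its 3 leading genes, with Mr1-/- in circles above Mr1+/+ in squares, exact 95% Poisson intervals and an open marker at 0 UMIs. Fth1 runs from 24748 and 23842 CPM in the 7630403G23Rik-led cluster to 39550 and 38361 CPM in the Klk6-led cluster, and Trf is lower in Mr1-/- cells of the first 4 clusters.

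Apart from the AY036118-led cluster, oligodendrocyte-like clusters with more Fth1 also had more Trf and less Mt1. Klk6-led cells had the most Fth1 (39550 and 38361 CPM) with 584 CPM of Trf in the Mr1-/- and 716 CPM in the Mr1+/+ library, and the least Mt1 (527 and 531 CPM). The 7630403G23Rik-led cells had the least Fth1 (24748 and 23842 CPM) and the least Trf (308 and 380 CPM), with 1357 and 1623 CPM of Mt1. The order of the clusters for Fth1 was not set by clustering on it, since the 10 genes were left out of the variable genes.

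Mural-like cells had 232 Mt1 UMIs (97.7 CPM) in the Mr1-/- and 368 UMIs (140 CPM) in the Mr1+/+ library, a ratio of 0.698 (0.590 to 0.825). In the Mr1+/+ library 1 cell held 45 of these, and the log2 ratio of -0.52 became -0.40 without the 5 highest cells of each library. The ratio was 0.644 (0.479 to 0.860) in pericyte-like and 0.843 (0.665 to 1.06) in Cnn1-led smooth muscle-like cells. Mt3 had 22 UMIs in Mr1-/- and 85 in Mr1+/+ mural-like cells, of which 1 Mr1+/+ cell held 38, and stood at the astrocyte ratio described above. Astrocyte UMIs in the class were 23 and 73. Fth1 had a ratio of 0.943 (0.92 to 0.966) over the class but of 0.998, 1.01, 1.09 and 1.03 in its 4 clusters. The Cnn1-led cluster, highest in Fth1, held 183 Mr1-/- and 231 Mr1+/+ cells, and at an equal mix of clusters the log2 ratio was 0.04, against -0.08 as measured. Cp had a ratio of 0.999 (0.877 to 1.14).

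In astrocyte-like cells the 3 metallothioneins did not move alike. Mt1 had a ratio of 0.933 (0.917 to 0.949), Mt2 of 0.859 (0.813 to 0.908) and Mt3 of 1.06 (1.04 to 1.07). The Mt2 difference was largest in the Igfbp2-led cluster, with 937 CPM in Mr1-/- and 1406 CPM in Mr1+/+ cells and a ratio of 0.666 (0.588 to 0.754). In the Gfap-led cluster it was 0.957 (0.846 to 1.08). The intervals are narrow because counts are large, and a difference of this size between 2 libraries has no replicate check. Fth1 (0.992) and Tfrc (0.990) had ratios near 1.

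In microglia-like cells Slc11a2 had 80 UMIs (20.2 CPM) in the Mr1-/- and 55 UMIs (14.6 CPM) in the Mr1+/+ library, and the interval of its ratio, 1.38 (0.968 to 1.98), holds 1. Its log2 ratio of 0.47 was 0.21 with thinned cells. Slc40a1 had a ratio of 0.867 (0.781 to 0.962), Trf of 1.12 (1.02 to 1.22), Mt1 of 0.823 (0.735 to 0.921), Ftl1 of 1.09 (1.06 to 1.12) and Fth1 of 1.06 (1.03 to 1.08). By cluster the Fth1 ratio was 1.06 (1.01 to 1.11) in Tmem119-led, 0.983 (0.949 to 1.02) in Cx3cr1-led, 1.32 (1.13 to 1.55) in S100a9-led and 1.2 (1.12 to 1.29) in Ccl4-led cells. The Ccl4-led cluster takes the name border macrophage-like, and the S100a9-led one none, when clusters are named at the finer resolution. The Ccl4-led cells had 4557 CPM of Fth1 in the 101 Mr1-/- and 3795 CPM in the 52 Mr1+/+ cells, and an Ftl1 ratio of 1.24 (1.17 to 1.33). With classes named at the finer resolution, which leaves out both these clusters, the log2 ratio of microglia-like cells was 0.01 for Fth1 and 0.05 for Ftl1, against 0.08 and 0.12 here. Thinned to 1500 UMIs, a Slc40a1 UMI was held by 23.5% of Mr1-/- and by 22.9% of Mr1+/+ microglia-like cells, against 54.0% and 61.8% unthinned and 0.313% and 0.139% of oligodendrocyte-like cells. At equal depth the intervals of the Slc40a1 shares overlapped.

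In the smaller classes few cells set the values. Neuron-like cells had 410 Mt3 UMIs (631 CPM) in the Mr1-/- and 848 UMIs (798 CPM) in the Mr1+/+ library, a ratio of 0.791 (0.701 to 0.891). The 5 highest cells held 31.0% and 22.3% of them, and the log2 ratio of -0.34 was -0.12 with thinned cells. Neuron-like Fth1 had a ratio of 1.24 (1.15 to 1.32), and Mbp UMIs in the class were 37 in the Mr1-/- and 37 in the Mr1+/+ library, 56.9 and 34.8 CPM. Its log2 ratio of 0.31 was 0.09 without the 5 highest cells of each library. In neuroblast-like cells Fth1 had 230 UMIs in the Mr1-/- and 419 in the Mr1+/+ library, a ratio of 0.581 (0.492 to 0.684). There 1 Mr1+/+ cell held 190 of the 419, Mbp UMIs were 6 and 48, and the log2 ratio of -0.78 became -0.09 without the 5 highest cells of each library. Ftl1 in the same cells, spread over the class, had 907 and 873 UMIs and a ratio of 1.10. Neuroblast-like Mt1 (165 CPM in Mr1-/- and 285 CPM in Mr1+/+ cells, ratio 0.578, 0.385 to 0.857) was held to 87.8% and 90.7% by the 5 highest cells, and Mt3 (133 and 255 CPM, ratio 0.521, 0.333 to 0.802) to 78.8% and 80.6%. Both ratios turned round with no more than 5% mitochondrial UMIs, to log2 values of 0.44 for Mt1 and 0.82 for Mt3.

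A wider list of 50 iron, zinc and copper genes, of which 49 were in the table, was read the same way. Of its measured genes, 2 were higher and 4 lower past the fold threshold of 30 in endothelial-like cells (19.5% of all genes past it in either direction), 2 and 1 of 24 in oligodendrocyte-like cells, and 2 and 4 of 28 in mural-like cells. The counts were 2 and 3 of 31 in astrocyte-like cells, 0 and 1 of 28 in microglia-like cells, 1 and 5 of 17 in neuron-like cells, and 2 and 2 of 6 in neuroblast-like cells. Beside these, the background was 15.5% in oligodendrocyte-like, 20.8% in mural-like, 22.6% in astrocyte-like, 16.1% in microglia-like, 29.6% in neuron-like and 43.7% in neuroblast-like cells. In endothelial-like cells, the copper chaperone Atox1 (1201 CPM in Mr1-/- and 1150 CPM in Mr1+/+) and the iron chaperone Pcbp2 (749 and 736 CPM) had the most UMIs. Haem oxygenase Hmox1 (41 and 22 UMIs) and lipocalin Lcn2 (80 and 58) had the highest ratios, 1.79 (1.04 to 3.16) and 1.33 (0.933 to 1.89). The copper exporter Atp7a (48 and 79 UMIs, 0.584, 0.399 to 0.846) and the ferrireductase Steap3 (68 and 88, 0.742, 0.533 to 1.03) had the lowest. Also lower past the threshold was Alas1, the first enzyme of haem synthesis, at 340 CPM in Mr1-/- and 450 CPM in Mr1+/+ cells (0.755, 0.700 to 0.814).

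In oligodendrocyte-like cells the haem transporter Slc48a1 had 1652 CPM in the Mr1-/- and 1689 CPM in the Mr1+/+ library, and Pcbp2 692 and 628 CPM. The haem exporter Flvcr1 (25 and 25 UMIs, ratio 1.49) and the zinc exporter Slc30a1 (36 and 42, 1.28) were highest. The zinc importer Slc39a10 (27 and 65, 0.621) and Ireb2, the iron regulatory protein (67 and 121, 0.828), were lowest. The intervals of Flvcr1, Slc30a1 and Ireb2 hold 1. In mural-like cells Pcbp2 (844 and 822 CPM) and the iron-sulphur scaffold Iscu (487 and 496 CPM) led, Slc30a10, a manganese exporter, had 157 CPM in Mr1-/- and 123 CPM in Mr1+/+ cells (1.28, 1.10 to 1.49), and Steap4 had a ratio of 1.26. Slc39a10 (0.758) and Atp7a (0.770) were lowest, with Aco1 (0.784) and Hfe (0.786) also below 0.8. The intervals of these 4 and of Steap4 hold 1.

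In astrocyte-like cells Slc48a1 (385 and 416 CPM) and Pcbp2 (338 and 319 CPM) led. Mtf1, the factor that binds metal response elements, had 32 UMIs (21.8 CPM) in Mr1-/- and 40 UMIs (13.2 CPM) in Mr1+/+ cells, a ratio of 1.66 (1.01 to 2.71), and Slc39a10 a ratio of 1.45 (1.06 to 1.99). The zinc importer Slc39a1 (0.580, 0.329 to 0.976) and Ncoa4, the receptor for ferritin turnover (0.770, 0.571 to 1.03), were lowest. Fech was at 0.777 (0.548 to 1.09). In microglia-like cells Pcbp1 (472 and 480 CPM) and Iscu (413 and 410 CPM) led. Slc39a10 (1.23, 0.939 to 1.62) and the scavenger receptor Lrp1 (1.15) had the highest ratios there. Slc39a12 (39 and 61 UMIs, 0.607, 0.396 to 0.922) and Atp7a (0.817, 0.591 to 1.13) had the lowest. Slc39a12 had 320 CPM in Mr1-/- and 299 CPM in Mr1+/+ astrocyte-like cells, and 9.86 and 16.2 CPM in microglia-like cells. In neuron-like cells Pcbp2 (908 and 754 CPM) and Atox1 (506 and 426 CPM) led, and Nfs1 (1.33) and Pcbp2 (1.2) had the highest ratios. Ireb2 (0.751) was among the lowest, with Alas1 (0.761), Fbxl5 (0.764) and Slc48a1 (0.768) also below 0.8. The neuron-like intervals of Nfs1, Ireb2, Alas1, Fbxl5 and Slc48a1 hold 1. In neuroblast-like cells Pcbp2 (1031 and 818 CPM) and Pcbp1 (697 and 487 CPM) led and were higher (1.26 and 1.43). Slc48a1 (0.516) and Slc22a17 (0.630, 0.368 to 1.06) were lower.

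The genes whose levels were most like each member were sought over 14 points, the 7 compared classes in both libraries, among 7901 genes. The measure was the Pearson correlation of log2(CPM + 10), and points of one class share their cell type and points of one library their preparation. For Mt1 they were Cyp2j6 (0.937), Fam107a (0.934) and Maob (0.925), for Mt2 Ddah1 (0.983), Fam107a (0.965) and Fam181b (0.954), and for Mt3 Enho (0.982), Me1 (0.981) and Psd2 (0.976). For Fth1 they were Kif13a (0.987), Synj2 (0.960) and Dock5 (0.957), and for Ftl1 Slc38a10 (0.949), Sec13 (0.947) and Cnot8 (0.928). Trf was most like Kcnk13 (0.986), Evi2a (0.976) and Cerk (0.963), and Tfrc most like Tmtc2 (0.945), Nxpe4 (0.942) and the monocarboxylate transporter Slc16a1 (0.937). Slc40a1 was most like Irgm2, Arap3 and AI467606 (0.982 each), and Cp most like Foxc1, Tbx3 (0.995 each) and Arhgap29 (0.993). Slc11a2 was least tied to any gene, with Camk2n1 at 0.918, Nr3c1 at 0.915 and Lifr at 0.888, and its levels span too narrow a range for a pattern.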

How the data were processed

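The authors deposited UMI counts per gene and cell for each library as sparse matrices. Alignment used STAR and Cell Ranger on mm10, per the submitters' processing notes. The matrix header names Cell Ranger 3.1.0 and the notes 5.1.0, and the difference was not resolved. Cells with at least 300 genes and at most 10% mitochondrial UMIs were kept, Scrublet doublets (171 Mr1-/- and 335 Mr1+/+ cells, expected rate 0.05) removed, and both libraries clustered together (scanpy 1.11.5, leidenalg 0.10.2, 2000 variable genes without the 10 members, 30 components, resolution 1.0; sub-clusters at 2.0). A cluster took the class with the highest mean marker z-score and stayed unnamed with under 3 markers seen in 10% of its cells, if another class had more markers among its 10 leading genes, or if it was shallow (sample median divided by 3) with no marker there. Counts were summed per class and library. CPM, ratios, percentages and intervals were computed here (SciPy 1.17.1). The ratios, their intervals and the fold call were checked on simulated counts that held counting error only. That check does not cover UMIs clumped in few cells.

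The text names all 10 members, in each class the 2 genes of the wider list with most UMIs and the 2 highest and 2 lowest ratios among those with at least 50 UMIs, and for each member the 3 genes most like it. Other listed genes past the fold threshold were named after their values were seen. Some results for genes outside the 10 members are not reported here. Members and lists were chosen with earlier results of these data known. Whether counting used strand is not given in the labels. Replicates were not available, so no test was run.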

Additional observations from a re-analysis of the deposited data

How the results depend on the processing

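With 1 library per genotype, no alternative tests replication, and depth limits members under 50 UMIs in a class, for which no change could be read. No paired analysis was possible because each genotype has 1 library. Of 498 alternative log2 ratios of members, 444 stayed within the counting interval, 50 moved out of it and 4 reversed sign. The 4 were all in neuroblast-like cells, with log2 ratios of 0.44 for Mt1 and 0.82 for Mt3 at no more than 5% mitochondrial UMIs, and of 0.15 for Fth1 both with up to 20% mitochondrial UMIs and with members among the variable genes. The cause was not tested. Of the 50 that moved, 15 came with cells thinned to 1500 UMIs, out of 46 ratios. Each other alternative moved from 0 (total without mitochondrial and ribosomal genes) to 8 (doublets kept). Thinning also leaves fewer UMIs, and the part of depth in these moves was not tested. Outside neuroblast-like cells, called members kept their direction. Mural-like Mt3 stood at the astrocyte ratio, so its direction is not read as a change of mural-like cells. Endothelial-like Tfrc ran from 0.31 to 0.47 and was past the fold threshold in 10 of 11 alternatives, oligodendrocyte-like Mt2 from -0.47 to -0.18 (10 of 11), mural-like Mt1 from -0.64 to -0.36 (11 of 11), mural-like Mt3 from -2.53 to -1.0 (11 of 11), microglia-like Slc11a2 from 0.21 to 0.70 (9 of 11) and neuron-like Mt3 from -0.73 to -0.12 (4 of 10).

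Counts of members past the fold threshold also moved. They are given without the share of all genes past it under each alternative, so they are not read as results about the members. Thinning to 1500 UMIs gave 2 in endothelial-like, 2 in oligodendrocyte-like, 1 in mural-like, 0 in microglia-like, 0 in neuron-like and 1 in neuroblast-like cells. No more than 5% mitochondrial UMIs gave 2 in oligodendrocyte-like, 1 in mural-like, 1 in astrocyte-like and 2 in microglia-like cells. Keeping doublets gave 4 in mural-like, 1 in astrocyte-like, 4 in microglia-like and 3 in neuron-like cells. Leaving out the 5 highest cells gave 2 in endothelial-like, 1 in mural-like, 2 in neuron-like and 0 in neuroblast-like cells. Equal weight per cell gave 2 in endothelial-like and 2 in oligodendrocyte-like cells, and median-of-ratios scaling 2 in endothelial-like cells. Members among the variable genes gave 2 in microglia-like and 1 in neuroblast-like cells, resolution 2.0 gave 2 in microglia-like and 2 in neuron-like cells, and up to 20% mitochondrial UMIs 1 in neuroblast-like cells. These counts keep the minimum of 50 UMIs, so a member short of UMIs leaves them even if its ratio stays past the threshold. Mural-like counts of 1 are such cases, since the ratios of Mt1 and Mt3 stayed past it in 11 of 11 alternatives. Neuron-like Fth1 (0.31) became 0.09 without the 5 highest cells. With clusters at an equal mix, chosen after seeing the data, mural-like Fth1 became 0.04, against -0.08, and Trf in oligodendrocyte-like cells -0.22, against -0.29. The background share of genes past the fold threshold ran from 30.9% to 64.2% with no minimum beyond 1 UMI in each library, and from 6.53% to 32.3% at 200 UMIs.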

Other observations

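Clusters that took no name stood outside the comparisons. A Gm45552-led cluster (62 Mr1-/- and 93 Mr1+/+ cells) had 2752 CPM of Mt1 in the Mr1-/- and 1681 CPM in the Mr1+/+ library. An S100a9-led cluster (42 and 111 cells) had 4921 and 4382 CPM of Ftl1. A Ccl19-led and Steap4-led cluster (37 and 36 cells) had 508 and 588 CPM of Cp, against 370 and 376, and 423 and 414 CPM, in the pericyte-like clusters. A Ttr-led cluster (13 and 14 cells) had 4624 and 3068 CPM of Mt1, 3891 and 2874 CPM of Mt3, and 10360 and 9398 CPM of Fth1. Each rests on few cells, and no difference between genotypes was tested.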
